A study of Homo sapiens with 34 samples.

Results

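HAND1, HAND2, FOXF1, ISL1, TBX3, TBX20, MESP1 and NKX2-5 are transcription factors of lateral and cardiac mesoderm. They were taken by gene symbol, as 8 genes of the 37951 listed, and all 8 passed the filter on low counts that left 17895 genes for testing. RNA was sequenced from 34 libraries of wild-type ESI017 cells, an established line of human embryonic stem cells, in 17 conditions with 2 replicates each. Cells first received a 24 h treatment that induced 1 of 4 primitive streak (PS) populations, and each population was then moved for a second day into 1 of 3 media, giving 12 combinations at 48 h. Undifferentiated cells in mTeSR PLUS, labeled 48 h, served as Control, so that the 24 h populations were compared with a later time. All conditions come from a single cell line. A supplement of the study calls the replicates biological. Nothing in the labels ties them to separate donors or cultures, so that p-values measure only the spread between these libraries.

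On day 1, DE(a) medium held activin, a ligand of the TGFβ family, at 100 ng/ml and CHIR99021, which activates Wnt signaling, at 2 µM. Anterior PS (APS) medium had less activin (30 ng/ml), more CHIR99021 (4 µM) and bFGF at 20 ng/ml. Mid PS (MPS) medium kept those doses of activin and bFGF, raised CHIR99021 to 6 µM and added BMP4 at 40 ng/ml. Posterior PS (PPS) medium was that of MPS without activin. On day 2, DE(b) medium, for definitive endoderm, held activin at 100 ng/ml with LDN-193189, an inhibitor of BMP receptors, at 250 nM. Paraxial mesoderm (PM) medium held the same dose of LDN-193189, bFGF at 20 ng/ml and A-8301, an inhibitor of activin and TGFβ receptors, at 1 µM. A supplement of the study also lists CHIR99021 in PM medium. Lateral mesoderm (LM) medium held A-8301 at that dose, BMP4 at 30 ng/ml and IWP2, which blocks Wnt secretion, at 4 µM. BMP4 was therefore present on day 2 in LM medium alone. The standard protocols were MPS-LM, DE(a)-DE(b) and APS-PM, and the other 9 combinations exchanged the day 1 treatment.

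In the embryo, mesoderm leaves the primitive streak and is allotted to paraxial, intermediate or lateral positions, with BMP favoring the lateral ones. MESP1, a basic helix-loop-helix factor, marks early mesoderm including the precursors of the heart. HAND1 and HAND2 are related basic helix-loop-helix factors of lateral mesoderm and heart, and FOXF1 is a forkhead factor of the splanchnic layer. ISL1 is a LIM-homeodomain factor of the second heart field, NKX2-5 is the homeodomain factor that marks cardiac progenitors, and TBX3 and TBX20 are T-box factors that act in the developing heart. Several of these genes, HAND1, ISL1 and TBX3 among them, are also used by extra-embryonic tissue such as amnion.

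The genes lie apart in the genome. In GRCh38 with GENCODE version 44, HAND2 occupies chr4:173524969-173530229 on the minus strand. On chromosome 5, ISL1 occupies chr5:51383448-51394730 on the plus strand, HAND1 chr5:154474972-154478227 on the minus strand and NKX2-5 chr5:173232109-173235311 on the minus strand. TBX20 lies at chr7:35202430-35254100, TBX3 at chr12:114670255-114684175 and MESP1 at chr15:89749875-89751249, all on the minus strand, and FOXF1 at chr16:86510527-86515422 on the plus strand.

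The RefSeq promoter table for GRCh38.p14 had an entry for 4 of the 8 genes, HAND1, HAND2, ISL1 and TBX20. The 250 bases before the start are shown for HAND1, HAND2 and TBX20, since these rose in LM medium from every PS population. They lie at chr5:154478228-154478477, chr4:173530230-173530479 and chr7:35254101-35254350, and are written along the minus strand that the genes use. Capitals mark matches, on either strand, to any of 3 motifs. The first was GGCGCC, which is a GC-rich element that SMAD proteins can bind. The others were the motif of GATA factors, searched as AGATAA, and the core of the T-box motif, searched as AGGTGT.
HAND1: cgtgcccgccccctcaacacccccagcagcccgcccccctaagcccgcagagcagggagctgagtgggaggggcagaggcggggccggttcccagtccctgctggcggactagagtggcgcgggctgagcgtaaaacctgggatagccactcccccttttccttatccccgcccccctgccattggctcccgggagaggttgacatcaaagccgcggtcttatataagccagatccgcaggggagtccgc
HAND2: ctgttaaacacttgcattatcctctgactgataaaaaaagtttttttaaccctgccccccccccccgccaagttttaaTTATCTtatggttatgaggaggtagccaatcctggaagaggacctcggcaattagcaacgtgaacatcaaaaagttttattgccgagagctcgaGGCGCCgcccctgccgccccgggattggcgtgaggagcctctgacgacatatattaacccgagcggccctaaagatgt
TBX20: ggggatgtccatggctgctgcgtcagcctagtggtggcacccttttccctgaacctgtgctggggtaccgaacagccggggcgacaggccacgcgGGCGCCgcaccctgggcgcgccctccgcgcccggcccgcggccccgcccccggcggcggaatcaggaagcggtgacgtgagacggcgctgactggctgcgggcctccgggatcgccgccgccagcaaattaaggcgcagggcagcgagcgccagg
HAND1 held none of these motifs and no E-box (CANNTG) in the window. HAND2 held 1 GATA match that began at position -172 from the start, 1 GC-rich match at -78 and 1 E-box. TBX20 held 1 GC-rich match, at position -155. The ISL1 window, at chr5:51383198-51383447 on the plus strand, held 1 GATA match at position -31 and 1 E-box. Of the 35116 promoter windows in the table, 16.4% held GGCGCC, 9.17% AGATAA, 9.57% AGGTGT and 61.8% an E-box. These matches describe letters only.

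Depth was similar across libraries, with total estimated counts of 15522780 to 23439799 and a median of 19341117. Fixed markers followed the labels in part. Summed over the 6 streak genes, levels were 2030 to 3646 CPM, the count scaled to the library total, in the 24 h libraries and 15.4 and 19.4 CPM in Control. Summed over 10 paraxial genes, LM libraries held 9.95 to 42.3 CPM, and DLL3, a Notch ligand of the presomitic mesoderm, was at 538.2 to 1123 CPM in PM against 3.55 to 16.2 CPM in LM. In bulk RNA, fewer cells expressing a gene and less RNA per cell cannot be told apart.

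In Control, the factors were close to silent. HAND2 and FOXF1 had no counts in either Control library, and TBX3 had the highest level of the 8, at 1.54 and 0.638 CPM. At 24 h, most of them were already above Control, itself labeled 48 h. In the quasi-likelihood test of edgeR with Benjamini-Hochberg adjustment over all genes tested, used for every adjusted p here, 6 of 8 passed in DE(a), where 19% of all genes passed in either direction. In APS, 7 of 8 passed against 24.5% of all genes, in MPS 7 of 8 against 30%, and in PPS 7 of 8 against 29.8%, and every one of these calls was higher than Control. The gene that did not pass in APS and MPS was HAND2, TBX20 did not pass in PPS, and both did not pass in DE(a). Of the calls made, 11 against Control over the 24 h and standard protocol comparisons were lost when some library was left out.

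**Figure D1:**
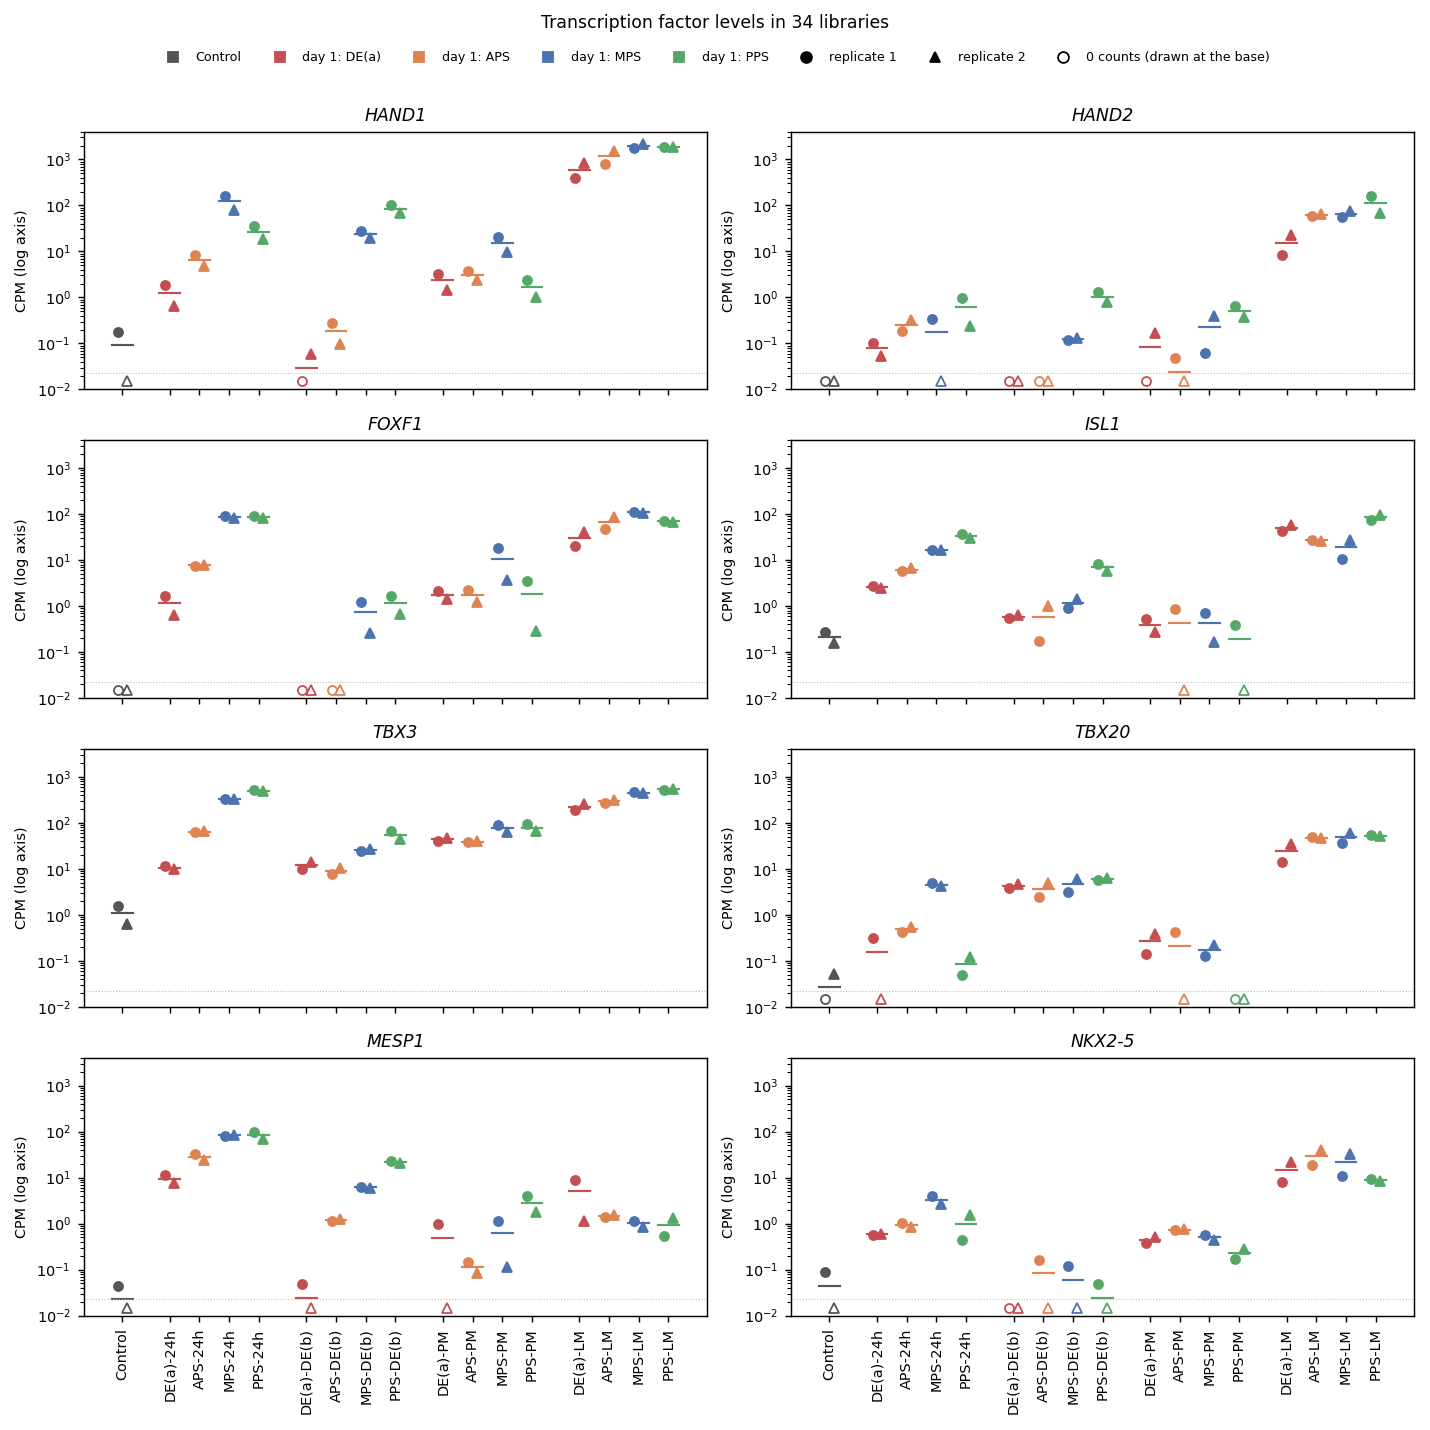
Level of each of the 8 factors in every library, in CPM on a log axis, for the 17 conditions; circles are replicate 1, triangles replicate 2, bars the mean of both, and open symbols at the base mark libraries with 0 counts. HAND1, HAND2, TBX20 and NKX2-5 were higher in all 8 LM libraries than in any of the other 26, whereas MESP1 was highest at 24 h. The share of all genes with such a separation was not counted.

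MESP1 was the factor of the streak stage. It was at 11.2 and 7.74 CPM in DE(a), 32.0 and 24.1 CPM in APS, 80.2 and 85.5 CPM in MPS and 99.7 and 69.8 CPM in PPS, against 0.0452 and 0 CPM in Control. The MPS level was 3380-fold the Control level on pooled counts, with a 95% exact conditional binomial interval of 607 to 134000 that rests on the 1 read in Control. MPS and PPS libraries overlapped, and their difference was -0.04 ± 0.62 on the log2 scale (fitted log2 fold change ± SE, the form used below; adjusted p = 0.993).

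TBX3 levels followed the order of the PS series, with no overlap between neighbors. Its levels were 11.3 and 9.93 CPM in DE(a), 62.2 and 66.0 CPM in APS, 335 and 330 CPM in MPS and 514 and 494 CPM in PPS. APS exceeded DE(a) by 2.57 ± 0.26 (adjusted p = 9.41e-06), and TBX3 was the 1 factor of 8 called there, against 0.732% of all genes. MPS exceeded APS by 2.39 ± 0.25 (adjusted p = 6.88e-06). PPS against MPS gave 0.52 ± 0.24, which did not pass (adjusted p = 0.221).

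HAND1 peaked in MPS at 24 h. It was at 1.87 and 0.645 CPM in DE(a), 8.34 and 4.72 CPM in APS, 164 and 79.6 CPM in MPS and 35.01 and 18.8 CPM in PPS. MPS exceeded APS by 4.25 ± 0.56 (adjusted p = 7.55e-05). PPS was lower than MPS, with a log2 fold change of -2.26 ± 0.50 (adjusted p = 0.00784), but this call was lost without MPS-24h replicate 1 (adjusted p = 0.193) or PPS-24h replicate 2 (adjusted p = 0.171).

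TBX20 was also highest in MPS among the 24 h populations, at 4.90 and 4.18 CPM, against 0.0495 and 0.120 CPM in PPS. On pooled counts MPS held 56-fold more than PPS (95% counting interval 18.9 to 274, adjusted p = 0.00046). Its rise from APS to MPS, 3.22 ± 0.67 (adjusted p = 0.00849), was lost without APS-24h replicate 1 (0.11), APS-24h replicate 2 (0.0911) or MPS-24h replicate 1 (0.0516). FOXF1 was at 7.53 and 8.01 CPM in APS, 89.5 and 82.6 CPM in MPS and 93.4 and 81.6 CPM in PPS. MPS exceeded APS by 3.49 ± 0.69 (adjusted p = 0.00691), lost without either APS-24h library (adjusted p up to 0.0971). MPS and PPS overlapped for FOXF1, with a difference of -0.05 ± 0.62 (adjusted p = 0.988).

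Counted over the series at 24 h, 4 of 8 were higher in MPS than in APS (HAND1, FOXF1, TBX3 and TBX20), where 2.93% of all genes passed. Between PPS and MPS, 2 of 8 passed, HAND1 and TBX20, both lower in PPS, against 6.14% of all genes. A joint test among the 4 populations was passed by 7 of 8, all but HAND2, against 18.8% of all genes. ISL1, like TBX3, followed the order of the PS series without overlap (joint adjusted p = 0.000779), though no step between neighbors passed. It was at 2.74 and 2.43 CPM in DE(a) and 5.79 and 6.655 CPM in APS. In MPS it was at 17.04 and 16.86 CPM, and in PPS at 36.8 and 30.5 CPM. NKX2-5 stayed at 4.00 CPM or less, and its joint adjusted p of 0.0359 was lost without APS-24h replicate 2 or any DE(a)-24h or MPS-24h library (0.0581 to 0.3).

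After LM medium, HAND1 was the most abundant of the factors. It was at 388 and 818 CPM in DE(a)-LM, 806 and 1528 CPM in APS-LM, 1790 and 2127 CPM in MPS-LM and 1892 and 1826 CPM in PPS-LM. In PM it was at 3.21 and 1.46 CPM from DE(a), 3.71 and 2.35 CPM from APS, 20.6 and 9.57 CPM from MPS and 2.38 and 1.05 CPM from PPS. No LM library overlapped any PM library. LM exceeded PM by 8.01 ± 0.67 from DE(a) (adjusted p = 1.24e-08), 8.66 ± 0.67 from APS (3.31e-09), 7.14 ± 0.62 from MPS (1.96e-08) and 10.15 ± 0.72 from PPS (1.03e-09).

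HAND2, the relative of HAND1, was at 8.26 and 22.5 CPM in DE(a)-LM, 57.9 and 64.6 CPM in APS-LM, 56.8 and 75.9 CPM in MPS-LM and 158 and 69.8 CPM in PPS-LM, and its highest level in the other 26 libraries was 1.30 CPM. LM exceeded PM by 8.20 ± 0.83 from MPS (adjusted p = 5.51e-07) and by 7.83 ± 0.76 from PPS (adjusted p = 2.69e-07). From DE(a) and APS, where PM held 3 reads and 1 read, the pooled ratios were 214 (95% counting interval 72.9 to 1040) and 2710 (486 to 107000).

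TBX20 was at 14.03 and 33.99 CPM in DE(a)-LM, 49.4 and 46.1 CPM in APS-LM, 37.3 and 61.6 CPM in MPS-LM and 54.1 and 50.7 CPM in PPS-LM, and PM libraries held 0.430 CPM or less. From PPS, where PM had no counts, LM was at least 771-fold higher, set against a floor of 3 counts over both libraries. LM exceeded PM by 8.18 ± 0.82 from MPS (adjusted p = 2.15e-07). NKX2-5 was at 8.03 and 21.5 CPM in DE(a)-LM, 18.6 and 39.3 CPM in APS-LM, 10.8 and 33.0 CPM in MPS-LM and 9.12 and 8.65 CPM in PPS-LM. LM exceeded PM for NKX2-5 by 5.08 ± 0.79 to 5.55 ± 0.80 over the 4 PS populations.

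ISL1, FOXF1 and TBX3 were also higher in LM than in PM from every PS population, but were less particular to LM. ISL1 was at 0.861 CPM or less in PM, and LM exceeded PM by 5.62 ± 0.80 from MPS (adjusted p = 1.53e-05) and 8.75 ± 0.88 from PPS (adjusted p = 1.21e-07). FOXF1 was at 109.7 and 107.9 CPM in MPS-LM against 18 and 3.67 CPM in MPS-PM, a difference of 3.45 ± 0.69 (adjusted p = 0.00115). TBX3 kept a clear level in PM, 38.2 to 93.6 CPM, and was at 186 to 547 CPM in LM. The TBX3 differences were 2.37 ± 0.25 to 2.96 ± 0.26.

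Against PM, 8 of 8 factors passed from DE(a) (18.3% of all genes passed), 8 of 8 from APS (21.8%), 7 of 8 from MPS (18.2%) and 7 of 8 from PPS (22.8%). All of these calls were higher in LM, and the factor that did not pass was MESP1. MESP1 in DE(a)-LM was at 8.92 and 1.15 CPM, and its call against PM there (adjusted p = 0.00818) was lost without DE(a)-LM replicate 1 (0.483) or DE(a)-PM replicate 2 (0.107). Its call from APS (adjusted p = 0.0202) was lost without any 1 of the 4 libraries (0.0554 to 0.135).

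**Figure D2:**
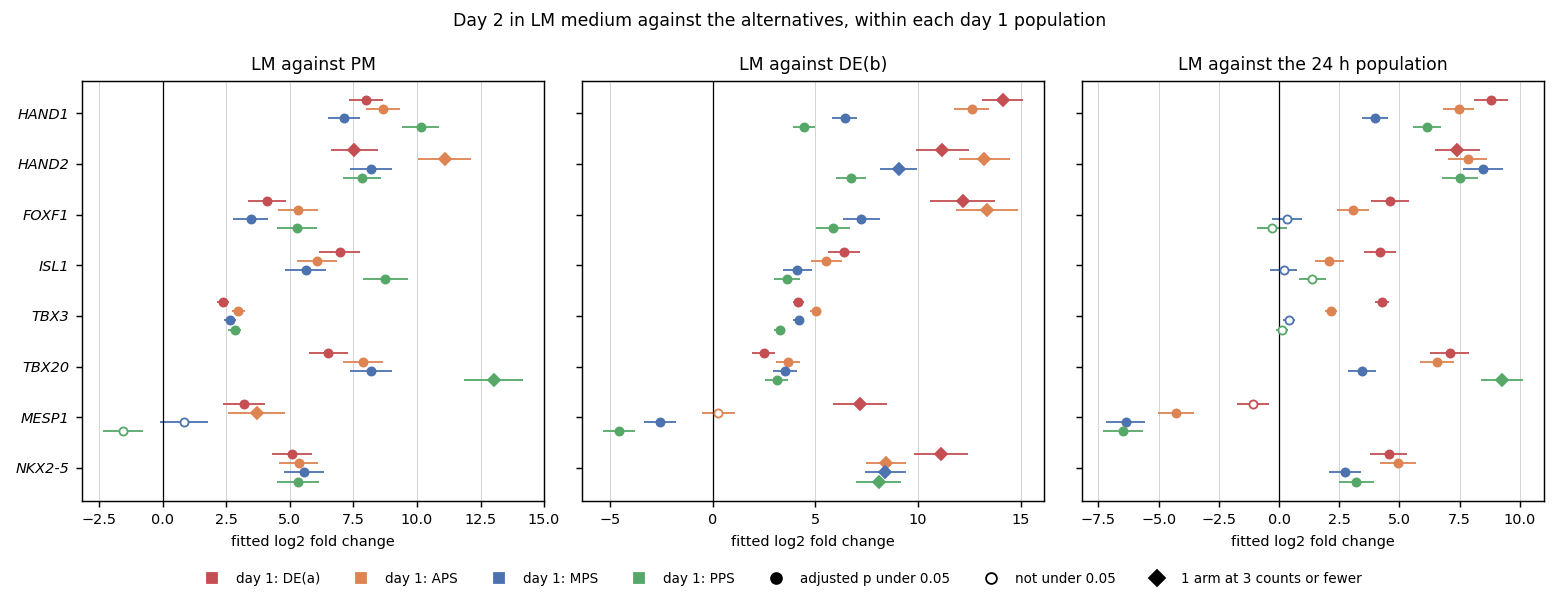
Fitted log2 fold changes of the 8 factors in LM against PM, DE(b) and the 24 h population, for the 4 PS populations; lines are ± SE, filled symbols passed an adjusted p of 0.05, and diamonds mark comparisons in which 1 group held 3 counts or fewer per library. The points for HAND1, HAND2, TBX20 and NKX2-5 lie above 0 in every comparison, and MESP1 lies below 0 against 24 h.

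Against DE(b), where activin was added and BMP receptors were inhibited, 8 of 8 passed from DE(a) (15.6% of all genes), 7 of 8 from APS (24.8%), 8 of 8 from MPS (20.3%) and 8 of 8 from PPS (19%). HAND2 and FOXF1 had no counts in DE(b) medium from DE(a) or APS. HAND2 was at least 205-fold and 783-fold higher in LM from these populations, and FOXF1 at least 399-fold and 848-fold higher. NKX2-5 was at 0.165 CPM or less in all DE(b) libraries.

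TBX3 and TBX20 were present in DE(b) from every PS population, TBX3 at 7.59 to 65.6 CPM. TBX20 was at 3.86 and 4.59 CPM from DE(a), 2.48 and 4.94 CPM from APS, 3.13 and 6.06 CPM from MPS and 5.77 and 6.40 CPM from PPS, above every PM library. Its level in DE(a)-DE(b) was 171-fold that in Control (95% counting interval 30.3 to 6810, adjusted p = 2.2e-05). LM exceeded DE(b) by 2.48 ± 0.56 from DE(a) (adjusted p = 0.00348, but 0.114 without DE(a)-LM replicate 2) and by 3.50 ± 0.59 from MPS (adjusted p = 0.000119).

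MESP1 went the other way from MPS and PPS. It was at 6.36 and 6.01 CPM in MPS-DE(b) against 1.16 and 0.854 CPM in MPS-LM, and at 22.6 and 20.8 CPM in PPS-DE(b) against 0.525 and 1.32 CPM in PPS-LM. The PPS difference was -4.55 ± 0.79 (adjusted p = 0.000175). The MPS difference was -2.57 ± 0.77 (adjusted p = 0.0188) and was lost in all 4 fits without 1 library (0.0544 to 0.148).

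The second day in LM medium divided the factors. HAND1 rose from its 24 h level by 8.79 ± 0.70 from DE(a), 7.45 ± 0.63 from APS, 3.99 ± 0.53 from MPS (adjusted p = 4.88e-06) and 6.15 ± 0.59 from PPS. HAND2, TBX20 and NKX2-5 rose from all 4 populations too, HAND2 by 8.45 ± 0.83 and TBX20 by 3.44 ± 0.58 from MPS. The NKX2-5 rise from MPS, 2.73 ± 0.67 (adjusted p = 0.0033), was lost without MPS-LM replicate 2 (adjusted p = 0.104).

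FOXF1, TBX3 and ISL1 rose from DE(a) and APS, where their 24 h levels were below those in MPS and PPS, and did not pass from MPS or PPS. From PPS, however, ISL1 was at 75.1 and 94.8 CPM in LM against 36.8 and 30.5 CPM at 24 h, without overlap. In that comparison 5 of 8 factors passed, 6 had an unadjusted p under 0.05, and 6 passed without the filter. From MPS the differences were 0.33 ± 0.62 for FOXF1 (adjusted p = 0.744), 0.42 ± 0.24 for TBX3 (0.196) and 0.18 ± 0.57 for ISL1 (0.852). From APS they were 3.07 ± 0.68, 2.16 ± 0.25 and 2.09 ± 0.60, the last with an adjusted p of 0.00847 that became 0.0666 without APS-24h replicate 1. Whether these differences themselves differed between populations was not tested. MESP1 fell in LM by 4.29 on the log2 scale from APS (SE 0.75), by 6.38 from MPS (SE 0.82) and by 6.47 from PPS (SE 0.83). From DE(a) its difference was -1.09 ± 0.67 (adjusted p = 0.231, but 0.0076 without DE(a)-LM replicate 1). In all, 7 of 8 passed from DE(a) (32.2% of all genes), 8 of 8 from APS (37.2%), 5 of 8 from MPS (31.3%) and 5 of 8 from PPS (25%).

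Among the standard protocols, MPS-LM differed from Control in 8 of 8 factors (41.6% of all genes passed), with HAND1 higher by 14.29 ± 0.92 (adjusted p = 7.78e-11). HAND2 was at least 918-fold and FOXF1 at least 1480-fold higher. In APS-PM 4 of 8 passed (HAND1, FOXF1, TBX3 and NKX2-5, against 35% of all genes), and in DE(a)-DE(b) 2 of 8 (TBX3 and TBX20, against 34.7%), all higher than Control.

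**Figure D3:**
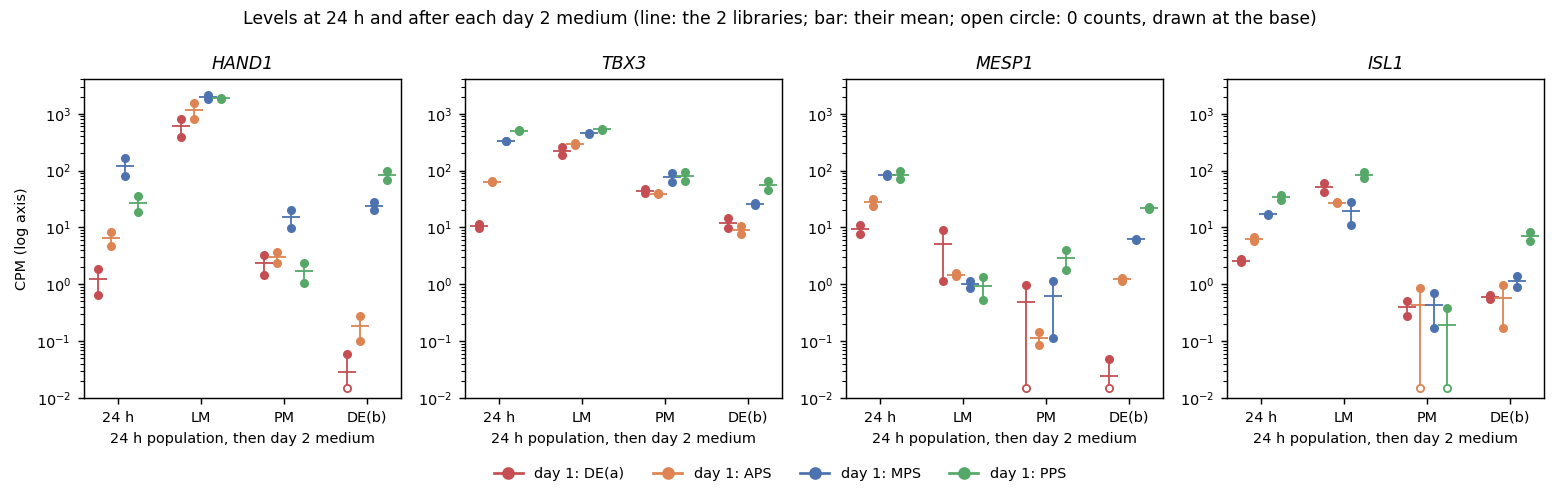
HAND1, TBX3, MESP1 and ISL1 at 24 h and after LM, PM and DE(b) media for each PS population, in CPM on a log axis; symbols are the libraries and open circles mark 0 counts. HAND1 from PPS was at 69.3 and 100.0 CPM in DE(b), whereas HAND1 from DE(a) was at 0 and 0.0583 CPM there.

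The day 1 treatment left its mark in DE(b) medium. HAND1 was at 0 and 0.0583 CPM in DE(a)-DE(b), 0.276 and 0.0987 CPM in APS-DE(b), 27.8 and 19.9 CPM in MPS-DE(b) and 100.0 and 69.3 CPM in PPS-DE(b). On pooled counts MPS-DE(b) held 899-fold and PPS-DE(b) 3240-fold the level of DE(a)-DE(b), with 95% counting intervals of 161 to 35600 and 581 to 128000. The PPS-DE(b) libraries lay above both PPS-24h libraries, at 35.01 and 18.8 CPM, while both MPS-DE(b) libraries lay below those of MPS-24h, and neither difference was tested.

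MESP1 showed a like order in DE(b), with 0.0492 and 0 CPM from DE(a), 1.16 and 1.28 CPM from APS, 6.36 and 6.01 CPM from MPS and 22.6 and 20.8 CPM from PPS. TBX3 in PPS-DE(b) exceeded DE(a)-DE(b) by 2.24 ± 0.26 (adjusted p = 2.5e-06), and ISL1 by 3.60 ± 0.75 (adjusted p = 0.00154). Relative to DE(a)-DE(b), 6 of 8 were higher in PPS-DE(b) (17.4% of all genes passed), 3 of 8 in MPS-DE(b) (5.59%), and 0 of 8 in APS-DE(b) (0.469%). In the APS comparison, 1 had an unadjusted p under 0.05, and DESeq2 called 0. Of the 6 calls in PPS-DE(b), HAND2 (0.00752) was lost without DE(a)-DE(b) replicate 2 (0.0569) or PPS-DE(b) replicate 1 (0.0581), and FOXF1 (0.0367) without either DE(a)-DE(b) library or PPS-DE(b) replicate 1 (0.13 to 0.229). TBX3 in MPS-DE(b), 1.09 ± 0.26 (adjusted p = 0.0112), was lost without DE(a)-DE(b) replicate 1 (0.142) or MPS-DE(b) replicate 2 (0.0866). The joint test in DE(b) called 6 of 8, all but TBX20 and NKX2-5, against 16.6% of all genes, where HAND2 (0.00527) was lost without PPS-DE(b) replicate 1 (0.0902) and FOXF1 (0.0418) without any DE(a), APS or PPS library (0.0537 to 0.182).

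In PM medium, the joint test called 4 of 8 (HAND1, FOXF1, TBX3 and MESP1, against 7.47% of all genes), and 0 of 8 when the PM libraries were fitted alone. Without MPS-PM replicate 1, HAND1 (0.0012) became 0.0782 and FOXF1 (0.0279) became 0.89, and FOXF1 was also lost without APS-PM replicate 2 (0.0538) or DE(a)-PM replicate 1 (0.0568). MESP1 (0.0165) was lost without either APS-PM library or PPS-PM replicate 1 (0.0503 to 0.226). PPS-PM exceeded APS-PM in 2 of 8, TBX3 and MESP1 (5.25% of all genes). MESP1 was at 3.94 and 1.81 CPM in PPS-PM against 0.143 and 0.0857 CPM in APS-PM, a pooled ratio of 25.9 (95% counting interval 10.8 to 81.2, adjusted p = 0.00927). TBX3 differed by 1.02 ± 0.24 (adjusted p = 0.0128). Both calls were lost without either APS-PM library or PPS-PM replicate 1 (0.0721 to 0.149), and with only the compared libraries fitted. No factor was called in DE(a)-PM (0.0559% of all genes; 0 at an unadjusted p under 0.05; DESeq2 called 0) or in MPS-PM (0.447%; 3 at an unadjusted p under 0.05; DESeq2 called 2).

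In LM medium, the joint test called 4 of 8, HAND1, HAND2, ISL1 and TBX3 (19.6% of all genes). HAND1 (0.0335) was lost without DE(a)-LM replicate 1, MPS-LM replicate 2 or either PPS-LM library (0.0608 to 0.263), HAND2 (0.00633) without DE(a)-LM replicate 1 (0.0807), and ISL1 (0.0324) without MPS-LM replicate 1 or any APS-LM or PPS-LM library (0.0561 to 0.2). Compared with MPS-LM, 3 of 8 were lower in DE(a)-LM (14.4% of all genes). HAND1 differed by -1.80 ± 0.48 (adjusted p = 0.0137), HAND2 by -2.20 ± 0.56 (0.0106) and TBX3 by -1.10 ± 0.24 (0.00257). Without DE(a)-LM replicate 1 these became 0.198, 0.147 and 0.0759, and without MPS-LM replicate 2 the first 2 became 0.0843 and 0.0791. The DE(a)-LM replicates differed, with HAND1 2.11-fold and HAND2 2.73-fold higher in replicate 2 and MESP1 7.79-fold higher in replicate 1. Markers of other cells moved with this comparison. The 8 endoderm markers summed to 213 and 182 CPM in DE(a)-LM against 0.761 and 4.99 CPM in MPS-LM, and 7 of them were over 1 CPM in both DE(a)-LM libraries against 0 in MPS-LM. SOX17 was at 94.8 and 69.6 CPM in DE(a)-LM and at 0 in MPS-LM, and FOXA2 was at 34.6 and 28.8 CPM against 0 and 0.19 CPM. The 3 pluripotency markers summed to 415 and 274 CPM in DE(a)-LM and 135 and 126.5 CPM in MPS-LM. Their part in the lower levels of HAND1, HAND2 and TBX3 was not tested.

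ISL1 was the 1 factor of 8 that differed between PPS-LM and MPS-LM (5.6% of all genes). It was at 75.1 and 94.8 CPM in PPS-LM, 10.8 and 27.5 CPM in MPS-LM, 28.1 and 26.5 CPM in APS-LM and 42.6 and 59.4 CPM in DE(a)-LM. PPS-LM exceeded MPS-LM by 2.11 ± 0.59 (adjusted p = 0.0346). The call was lost without MPS-LM replicate 1 (0.344), PPS-LM replicate 1 (0.0818) or PPS-LM replicate 2 (0.255). HAND1 in the same comparison gave -0.10 ± 0.47 (adjusted p = 0.982). APS-LM against MPS-LM called 0 of 8 (3.79% of all genes; 1 at an unadjusted p under 0.05; DESeq2 called 0).

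Amnion markers were also highest in PPS-LM. Summed over 12 markers they were at 1008 and 1130 CPM in PPS-LM, 245 and 308 CPM in DE(a)-LM, 82.0 and 99.8 CPM in APS-LM and 103 and 132 CPM in MPS-LM, so that PPS-LM and DE(a)-LM led for both the sum and ISL1, while APS-LM was below MPS-LM for the sum and overlapped it for ISL1. In PPS-LM, 10 of the 12 were over 1 CPM in both libraries, against 6 in MPS-LM, and 8 of 11 tested were higher than in MPS-LM. IGFBP3, an IGF-binding protein, made up much of the PPS-LM sum at 709.5 and 697 CPM. GABRP was at 31.8 and 51.9 CPM in PPS-LM and 0.931 and 0.664 CPM in MPS-LM, and the transcription factor TFAP2A at 113 and 167 CPM and 30.6 and 35.4 CPM. GATA3 was at 128.5 and 140.1 CPM in DE(a)-LM and 36.2 and 63.1 CPM in MPS-LM. The part of such cells in the ISL1 levels was not tested. Trophoblast markers summed to 1.65 CPM or less in every LM library, and KRT24, an amnion marker, was at 0.107 CPM or less there. Of the 7 blood and endothelial markers, KDR, a VEGF receptor also made by early mesoderm, was at 287.9 to 1506 CPM in LM against 16.7 to 112.5 CPM in PM, higher than PM and DE(b) from all 4 populations. SOX7, by the more abundant of its listed identifiers, was higher than in DE(b) from all 4, at 1.1 to 33.2 CPM in LM. Its other identifier was at 0 to 11.4 CPM there. LMO2 went the other way and was lower than in PM from all 4. It was at 0.722 to 7.83 CPM in LM against 22.25 to 98.59 CPM in PM. CDH5 was at 0.764 CPM or less in LM.

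**Figure D4:**
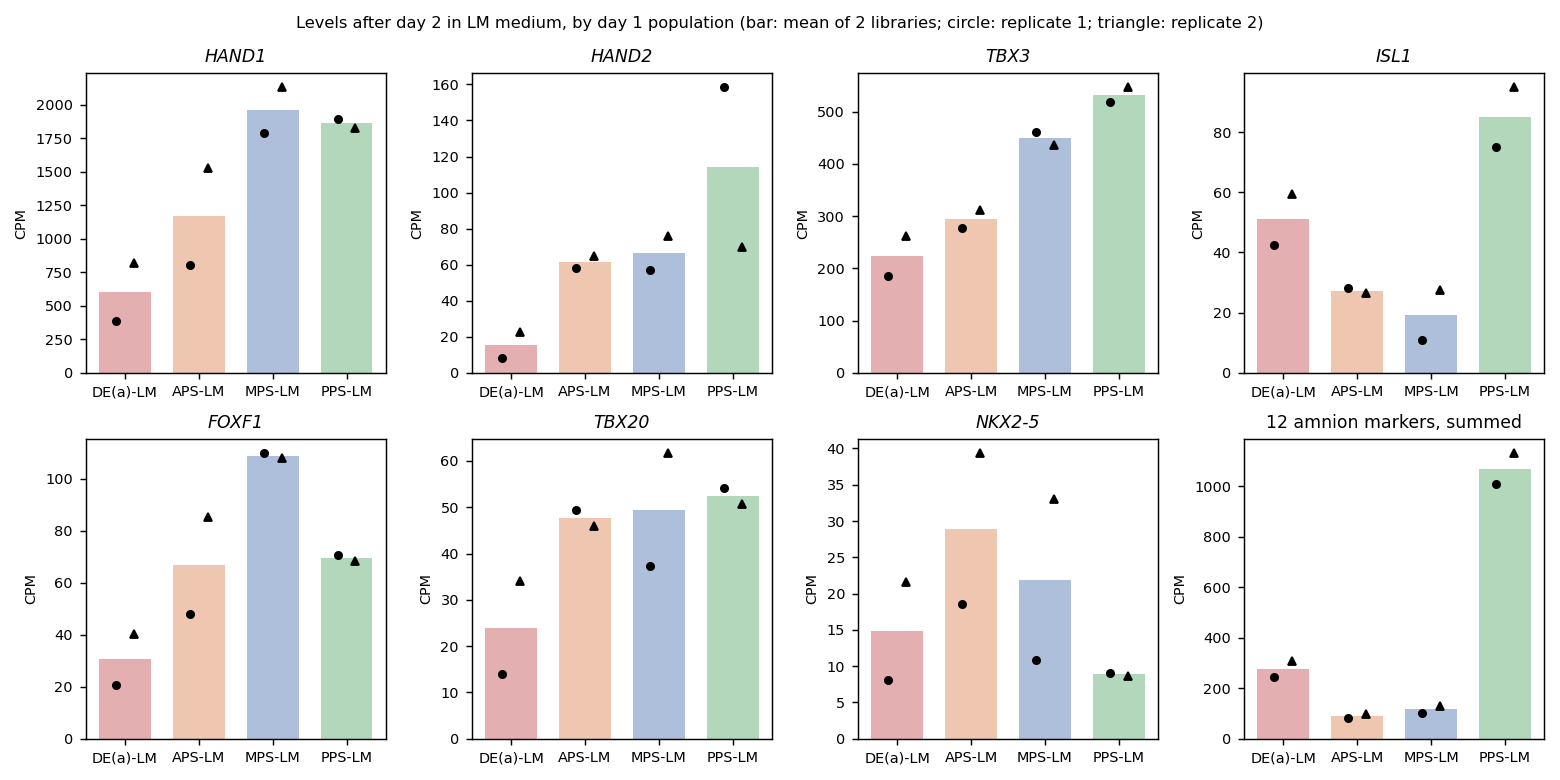
Levels of 7 factors and of the summed 12 amnion markers in LM by PS population, in CPM from 0; bars are the mean of 2 libraries and points the libraries. ISL1 and the amnion sum were highest in PPS-LM. HAND1 had its lowest mean in DE(a)-LM, whose libraries overlapped those of APS-LM.

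A test of whether the effect of the day 1 treatment depended on the day 2 medium called 3 of 8, against 13.1% of all genes. These were HAND1 (adjusted p = 2.48e-06), MESP1 (0.000276) and TBX3 (0.00989, but 0.116 without PPS-DE(b) replicate 1). ISL1 was next, at 0.0657.

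Per kilobase of merged exons, which allows levels of different genes to be compared, HAND1 in MPS-LM was at 1150 CPM per kb, TBX3 at 75.3, FOXF1 at 30.9, TBX20 at 27.1, HAND2 at 18.4, NKX2-5 at 10.7, ISL1 at 6.8 and MESP1 at 0.922. In MPS at 24 h, MESP1 at 75.7 and HAND1 at 71.7 CPM per kb led, followed by TBX3 at 55.8 and FOXF1 at 24.4. In the order of the 17 condition means, neighboring conditions had separate replicates in 10 of 16 steps for TBX3, 8 for ISL1, 7 for MESP1 and NKX2-5, 6 for HAND1 and FOXF1, and 4 for HAND2 and TBX20. In the other steps the replicates of neighboring conditions overlapped. The same count over all genes was not made.

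Genes of other lists were counted where they were called from all 4 populations at once. Of all genes tested, 3.96% were higher and 3.71% lower in LM than in PM by this rule, and 2.6% were higher and 3.1% lower than in DE(b). BMP targets were higher than in PM for 8 of 10, and higher than in DE(b) for 8 of 10. BAMBI, a decoy receptor that BMP induces, was at 453.8 to 863.5 CPM in LM, 28.7 to 68.2 CPM in PM and 16.7 to 116.8 CPM in DE(b). SMAD6, an inhibitor in the same pathway, was at 229.7 to 705.8 CPM in LM and 12.3 to 26.3 CPM in PM. From MPS, the median log2 difference of these 10 genes against PM was 2.92, beside -0.01 over all genes tested.

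Of the other heart-field factors, 5 of 14 tested were higher in LM than in PM from all populations (3.96% of all genes). Higher than in DE(b) by the same rule were 3 of 14 (2.6%). TBX2, a T-box repressor, was at 37.7 to 89.9 CPM in LM and 0.0631 CPM or less in PM. GATA4 was at 47.0 to 114.7 CPM in LM and 5.78 to 22.5 CPM in PM. GATA6 was higher than in PM but lower than in DE(b), at 51.6 to 115.5 CPM in LM, 6.27 to 17.6 CPM in PM and 464.6 to 791.4 CPM in DE(b). From MPS the median over the list against PM was 2.59.

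Lateral and limb factors were higher than in PM from all populations for 4 of 14 (3.96% of all genes) and lower for 1 (3.71%). PITX1, a homeodomain factor of the hindlimb, was at 6.69 to 308.2 CPM in LM and 0.787 to 8.61 CPM in PM. Amnion markers were higher than in PM for 4 of 11 (3.96% of all genes) and higher than in DE(b) for 4 of 11 (2.6%). They summed to 82.0 to 1130 CPM in LM against 11.7 to 20.7 CPM in PM. GATA3 was at 36.2 to 140.1 CPM in LM and 5.87 CPM or less in PM. Their part in the factors' levels was not tested. Heart contractile genes were higher than in PM from all populations for 3 of 13 (3.96% of all genes). ACTC1, cardiac α-actin, was at 3331 and 3676 CPM in MPS-LM and 224.7 and 586.8 CPM in DE(a)-LM, whereas TNNT2, cardiac troponin T, was at 6.45 and 2.42 CPM in MPS-LM and MYH7 had no counts there.

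Over the 17 condition means, as log2(CPM + 1), the factors other than MESP1 correlated with each other at a Pearson r of 0.536 to 0.92 in 21 pairs, highest for FOXF1 with TBX3. MESP1 correlated with them at -0.183 to 0.431. By Spearman rank correlation these ranges overlapped, with FOXF1 and TBX20 at 0.342 and MESP1 and ISL1 at 0.502. MESP1 with HAND2 went from -0.183 to 0.373. These points share libraries and give a description only. Of 11639 other genes reaching 10 CPM, the closest to HAND1 were RALYL (0.939), FOXF2 (0.938), the relative of FOXF1, and PRDM6 (0.937). Closest to HAND2 were P2RY6 (0.994), ASXL3 (0.982) and TBX2 (0.975), and to NKX2-5 RGS2 (0.967), PTH1R (0.957) and PRDM6 (0.952). Closest to TBX20 were ECE1 (0.956), KIAA1324L (0.956) and KRT18 (0.953). Among the closest to FOXF1 were BAMBI (0.933) and MSX2 (0.916), and among the closest to TBX3 were DAB2 (0.938) and FZD1 (0.933). ISL1 was most like BAMBI (0.949), ID2 (0.939) and SAMD11 (0.933). MESP1 was most like SNX18 (0.962), TMEM154 (0.934) and STYK1 (0.928). Most of these genes were not among the 3 closest by Spearman rank correlation. P2RY6 was then at 0.585 and ranked 733 for HAND2, ASXL3 ranked 225, and PRDM6 ranked 154 for NKX2-5. ECE1 still ranked 1 for TBX20 and SNX18 ranked 1 for MESP1.

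Within 100 kb, 5 of the 8 factors had a neighbor reaching 1 CPM. MESP2, the relative of MESP1, lies beside it on the opposite strand, reached 3.22 CPM in DE(a)-LM and correlated with MESP1 at 0.755 over the 17 means. KIF7, at the same locus, reached 88.95 CPM in PPS-24h and correlated at 0.797. FOXC2, near FOXF1, reached 11.4 CPM in DE(a)-PM and correlated with FOXF1 at -0.368.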

How the data were processed

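The authors deposited estimated counts per gene, made by Salmon 1.10.2 against GRCh38 transcripts, correcting for sequence and GC bias, and summed to genes in R 4.4.2, for stranded poly(A) libraries. Each replicate came in its own table. Estimated counts move with how reads are shared among transcripts. Here they were rounded and fitted in edgeR 4.0.16 (R 4.3.3; TMM scaling, filterByExpr by condition, 1 mean per condition over 34 libraries, residual df 17, common dispersion 0.0611), with quasi-likelihood tests, Benjamini-Hochberg adjustment over 17895 genes and calls at an adjusted p under 0.05. SE is the log2 fold change over the root of F. CPM scale a count to the library total. Scripts were tested on simulated data. Alternatives were RLE scaling, no filter, DESeq2 1.42.0, a replicate block, only the libraries compared, and leaving out each library. Correlations were also taken by Spearman rank. Counting intervals and floors cover counting error only. The factors and gene lists were chosen with earlier results of these data known. Named genes were the 8 factors, the 3 genes most like each (an item among them is not reported here), up to 4 per list called from all 4 populations, defining markers of other cell types, and neighbors within 100 kb. Other genotypes of the study were not analysed here.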

Additional observations from a re-analysis of the deposited data

Results flagged for a closer look

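Differences between the PS populations depended on the day 2 medium for 3 factors, by a test of that dependence itself in edgeR over the 12 combinations. For HAND1 the adjusted p was 2.48e-06, with PPS above DE(a) by a pooled ratio of 3240 in DE(b), while in LM the means were 1859 and 603 CPM. For MESP1 the adjusted p was 0.000276. The MESP1 means from DE(a) and PPS were 0.0246 and 21.7 CPM in DE(b), 5.035 and 0.922 CPM in LM, and 0.494 and 2.88 CPM in PM. The DE(a)-LM mean came from libraries at 8.92 and 1.15 CPM. For TBX3 the adjusted p was 0.00989, and 0.116 without PPS-DE(b) replicate 1. No explanation was tested.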

How the results depend on the processing

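No call changed direction under any alternative fit, and RLE scaling changed no call of the 288 tests. Without the filter, calls went from 7 to 17 of 24 between neighboring 24 h populations, from 4 to 8 of 8 among populations in LM, from 4 to 13 of 24 against MPS-LM, from 2 to 10 of 24 against APS-PM and from 3 to 7 of 8 for the dependence of day 1 on day 2. DESeq2 gave 2 in LM, 5 against APS-PM and 6 for the dependence. With only the libraries compared, 0 were left in PM and 0 against APS-PM. Leaving out 1 library at a time gave 2 to 5 in LM, 2 to 4 in PM, 1 to 5 against MPS-LM, 0 to 2 against APS-PM and 2 to 5 for the dependence, and 134 of 173 calls held in every such fit. The cause was not tested. LM against PM kept 29 to 31 of 32 calls in number under every alternative, and LM against DE(b) 30 to 31 of 32.

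Replicate numbers were not taken to pair the libraries, since the labels tie them to no shared batch and not every pair of conditions had replicate deviations correlated over 0.1. Of 136 pairs 96 did, with a median of 0.162 (-0.196 to 0.569), so a shared part between same-numbered libraries is not excluded. With the replicate number as a block, calls against MPS-LM went from 4 to 6 and those against APS-PM from 2 to 3, and no other call changed. Low counts limit HAND2, NKX2-5 and Control comparisons.

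Over all genes, counts moved by more than 1.5 times as follows. For APS against DE(a) at 24 h, 131 became 264 with DESeq2, 570 without the filter and 73 with only the libraries compared. For MPS against APS, 524 became 809, 1144 and 267, and for PPS against MPS 1098 became 1675, 1876 and 296, and 1717 with the block. For APS-LM against MPS-LM, 679 became 1176, 1421 and 244, and 1046 with the block. For APS-PM comparisons, 10 became 96, 444 and 0 from DE(a), 80 became 214, 525 and 2 from MPS, and 940 became 1418, 1674 and 160 from PPS. Among populations in PM, 1337 became 2031, 2528 and 272. For APS-DE(b) against DE(a)-DE(b), 84 became 246, 609 and 0, and 138 with the block. Without the filter, 1002 became 1560 for PPS-LM against MPS-LM and 1000 became 1713 for MPS-DE(b), which was 548 with only the libraries compared. With only those libraries, DE(a)-LM against DE(a)-PM went from 3275 to 1751 and the 24 h joint test from 3359 to 1904. The dependence went from 2351 to 3637 with DESeq2 and 4091 without the filter.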
